A study of Mus musculus with 6 samples.

Results

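The DNA replication and S phase genes were 45 genes chosen by symbol, with earlier results of these data known. They were factors that license and fire origins, polymerases and their clamp, enzymes that supply nucleotides, the pair that copies DNA methylation, and regulators of the G1/S transition. All 45 were among the 14051 listed genes, and all 45 were among the 11649 that passed a filter on low values (3 libraries or more with a normalized count of 10 or above). The study sequenced RNA of CD8+ donor T cells to see what glucocorticoids (GC) do to the T cells themselves after bone marrow (BM) transplantation. Irradiated B6D2F1 recipients of every group were transplanted with T cells purified from B6.CD45.1 mice. The GC-treated mice received dexamethasone, a synthetic glucocorticoid, at 5 mg/kg/day i.p. from day -1 to day +5, and the vehicle-treated mice received methyl β-cyclodextrin on the same days. On day 5 an i.v. antibody to CD45 marked cells within vessels, and the donor CD8+ T cells that carried it were then sorted; the BM of 2 to 3 mice had been pooled for each biological group. Each group had 3 libraries. No age or sex of the mice was given in the sources used here, and nothing says that each library had its own pool, so the p-values measure the spread between these libraries, which may be technical.

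Before a cell divides, the origin recognition complex, Cdc6 and Cdt1 load the MCM2-7 helicase onto DNA in G1, and at the start of S phase Cdc45 and GINS turn it into an active helicase. Primase and polymerase α then lay down primers, which polymerases δ and ε extend with the sliding clamp PCNA. Most of these genes are transcribed in a wave at the G1/S transition by E2F factors, and activated CD8+ T cells, which divide rapidly, express them strongly.

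The libraries held 60949593 to 64801008 reads on listed genes in the vehicle-treated group and 67887570 to 76888118 in the GC-treated group. Normalized counts are these reads divided by 1 size factor per library. Of 11 T cell markers, which included Cd8a and Cd8b1 but were mostly not particular to CD8 T cells, 10 were listed. None of the 10 was at 0 in any library. Their summed normalized count was 478331 to 585838 in the GC-treated and 481696 to 509955 in the vehicle-treated libraries. GC-treated 1 was nearer to the vehicle-treated libraries than to its own group. Its chi-square per degree of freedom over genes was 104 and 149 against the other GC-treated libraries, but 21.2 to 35.8 against the vehicle-treated ones. GC-treated 2 and 3 were not close to each other either, at 93.9. Against the vehicle-treated libraries GC-treated 2 had 62.2 to 151 and GC-treated 3 had 121 to 191. Because GC-treated 1 lay near the other group, results that rest on it are given with and without it. Of the 12 neutrophil markers 8 were listed, and their summed normalized count was 1338 to 12345 in the GC-treated and 384 to 3144 in the vehicle-treated libraries, where 3 were at 0 in vehicle-treated 1 and 2 in vehicle-treated 2. Transcripts of the mitochondrial genome took 0.400% to 0.902% of GC-treated and 0.757% to 1.13% of vehicle-treated reads. Summed markers of naive or resting T cells were 26402 to 34201 against 28933 to 47378. Those of CD4 T cells, 828 to 1041 against 1154 to 1353, did not overlap, while those of B cells, erythroid cells, myeloid progenitors, and monocytes and macrophages overlapped between groups. The sum for monocytes and macrophages, 19544 to 25708 against 16422 to 25431, was mostly 1 gene, Ccr2, at 17849 to 24483 against 14917 to 23849. The part of these markers and of the mitochondrial share in the results was not tested.

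The promoters of 4 members are shown because these genes mark the range of the data: Mcm6, the member with the highest normalized count, and those with the smallest p, Orc1 and Fen1 with GC-treated above vehicle-treated and Dnmt1 below. They run from 250 bases before to 50 bases after the start of the canonical Gencode M39 transcript on GRCm39, 5′ to 3′ on the gene's strand. Capitals mark letters of 3 motif families found on either strand: TTTCGCGC, TTTGGCGC or TTTCCCGC (E2F sites), CCAAT (the box bound by NF-Y) and TTTGAA or TTCGAA (the CHR element found in genes of G2 and mitosis).
Mcm6 (chr1:128287403-128287702, minus strand): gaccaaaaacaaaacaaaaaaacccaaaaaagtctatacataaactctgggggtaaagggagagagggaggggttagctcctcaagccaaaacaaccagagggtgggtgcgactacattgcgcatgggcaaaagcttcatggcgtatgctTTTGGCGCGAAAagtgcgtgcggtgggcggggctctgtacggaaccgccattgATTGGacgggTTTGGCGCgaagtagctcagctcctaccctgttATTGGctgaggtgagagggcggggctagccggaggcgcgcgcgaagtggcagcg
Orc1 (chr4:108436370-108436669, plus strand): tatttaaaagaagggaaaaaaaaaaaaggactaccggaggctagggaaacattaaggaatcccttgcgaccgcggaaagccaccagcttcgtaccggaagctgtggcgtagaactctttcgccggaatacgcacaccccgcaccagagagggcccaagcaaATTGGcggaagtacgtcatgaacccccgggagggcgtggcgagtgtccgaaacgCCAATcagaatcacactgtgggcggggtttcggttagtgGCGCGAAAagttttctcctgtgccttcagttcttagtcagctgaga
Fen1 (chr19:10181720-10182019, minus strand): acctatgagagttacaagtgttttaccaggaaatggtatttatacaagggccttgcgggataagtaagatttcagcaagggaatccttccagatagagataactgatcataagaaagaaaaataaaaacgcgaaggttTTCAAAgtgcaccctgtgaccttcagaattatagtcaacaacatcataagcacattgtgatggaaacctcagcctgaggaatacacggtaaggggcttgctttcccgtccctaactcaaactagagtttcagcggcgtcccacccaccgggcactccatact
Dnmt1 (chr9:20864226-20864525, minus strand): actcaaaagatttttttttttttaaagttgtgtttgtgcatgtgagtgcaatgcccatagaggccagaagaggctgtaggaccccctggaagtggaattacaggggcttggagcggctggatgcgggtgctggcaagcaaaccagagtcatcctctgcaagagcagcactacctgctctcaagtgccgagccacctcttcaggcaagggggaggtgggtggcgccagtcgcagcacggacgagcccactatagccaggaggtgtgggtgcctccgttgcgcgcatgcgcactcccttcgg

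With positions given for the first base on the gene's strand and the start as 1, the Mcm6 promoter held TTTGGCGC at -100 and -37 and, overlapping the former on the other strand, TTTCGCGC at -96. The Orc1 promoter held TTTCGCGC at 5 and CCAAT at -89 and -35. None of the E2F letters occurred in the Fen1 or Dnmt1 windows, which says only that these letters are not in these windows; Fen1 had the CHR letters TTTGAA at -112. Over the 45 members, 13 promoters (28.9%) held at least 1 of the E2F letter runs, against 383 of the 11395 tested genes with a promoter of the same length (3.36%). CCAAT was in 55.6% of member promoters and 39.2% of all, and the CHR letters were in 8.89% and 15.8%. The first match of each of 10 further members with E2F letters is shown with up to 10 bases on either side, in the direction in which the letters read, to show the letters in their surroundings.
Cdc6 (chr11:98798657-98798676, plus strand): gtagagcggcTTTGGCGCga
Cdt1 (chr8:123294776-123294797, plus strand): gaactaccttTTTGGCGCcatg
Mcm3 (chr1:20890500-20890527, plus strand): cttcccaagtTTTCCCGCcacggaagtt
Mcm4 (chr16:15455471-15455498, minus strand): cggccccgggTTTCCCGCcaaaacgcaa
Mcm5 (chr8:75835974-75836001, plus strand): cgccaagaacTTTCGCGCcaaaacgtcc
Gins1 (chr2:150751495-150751522, plus strand): gttgagcctaTTTGGCGCcaaagcgagg
Pola1 (chrX:92675882-92675909, plus strand): cgggagtgcaTTTGGCGCcctgtgatga
Pole2 (chr12:69274937-69274964, plus strand): atgttcgcgaTTTGGCGCcaccgccgac
Rfc3 (chr5:151574666-151574693, minus strand): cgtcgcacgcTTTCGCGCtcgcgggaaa
E2f1 (chr2:154411778-154411805, minus strand): gcaaaaaggaTTTGGCGCgtaaaagtgg

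The median log2 fold change was 0.032 for the 13 members with E2F letters and 0.070 for the 32 without, with 5 and 10 negative values.

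As a set, the replication genes took nearly equal shares of reads in the 2 groups. They held 1.47%, 1.39% and 1.43% of reads in GC-treated 1 to 3 and 1.41%, 1.48% and 1.41% in vehicle-treated 1 to 3, each with a Wilson 95% interval at most 0.0061 percentage points wide, which covers counting error only. The group means were 1.430% ± 0.0383 and 1.432% ± 0.0379 (SD, n = 3), and the libraries of the groups interleaved. In bulk RNA a lower share of cycling cells and less RNA per cell cannot be told apart.

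Gene by gene, no member passed the test. At an adjusted p under 0.05, limma with Benjamini-Hochberg adjustment called 0 of the 45, and it called 0 of all 11649 genes (0.0%); edgeR called 0 genes (0.0%), and DESeq2 called 2 genes (0.0143%), neither of them a member. The smallest adjusted p of a member was 0.62 in limma. At an unadjusted p under 0.05, 3 members passed in limma, which is 6.67% of members against 7.19% of all tested genes. They were Orc1 and Fen1 with GC-treated above vehicle-treated (4.44%, against 2.12% of all tested genes) and Dnmt1 with GC-treated below (2.22%, against 5.07%). The corresponding count of members was 3 in edgeR, where 6.08% of all genes passed, and 4 in DESeq2, where 7.03% did. The members in edgeR were the same as in limma. In DESeq2 they were Orc1 above and Dnmt1, Pole and Pola1 below, while Fen1 had an unadjusted p of 0.0532. In 9 members the groups of libraries did not overlap. GC-treated lay above in 8 (17.8%, against 6.4% of all tested genes) and below in 1 (2.22%, against 6.4%). Among the 8 were Gins2, Fen1, Rrm2 and Rfc4, of whose exon bases 67.3%, 65.9%, 43.3% and 29.0% overlap other genes. A negative log2 fold change was found in 15 of the 45 (33.3%, against 51.5% of all tested genes). The members were chosen with earlier results of these data known and are not independent of each other. Their shares are therefore a description and not a test. With 3 libraries against 3, an exact permutation test of a single gene cannot give a p under 0.1.

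The log2 fold changes, GC-treated minus vehicle-treated on the log2(normalized count + 1) scale, had a median of 0.064 over the members and -0.0079 over all tested genes, and ran from -0.38 for Pola1 to 0.49 for Fen1. In 42 of 45 members (93.3%) the 95% interval lay within 1.5-fold either way, against 59.1% of all tested genes and 84.9% of those with a mean normalized count of at least 1000. The exceptions were Fen1, Pola1 and Pole. The spread between libraries of a group was small for the members, with a median SD of 0.091 on the log2 scale. It was 0.18 for all tested genes and 0.13 for the 7206 of these with a mean normalized count of at least 1000. Levels were not matched: the median of the mean normalized counts was 11525 for the members, against 1997 and 4510 for these sets. The part of level in the narrower spread and intervals was not tested. The highest library exceeded the lowest by a median factor of 1.21 over members and 1.43 over all tested genes.

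**Figure D1:**
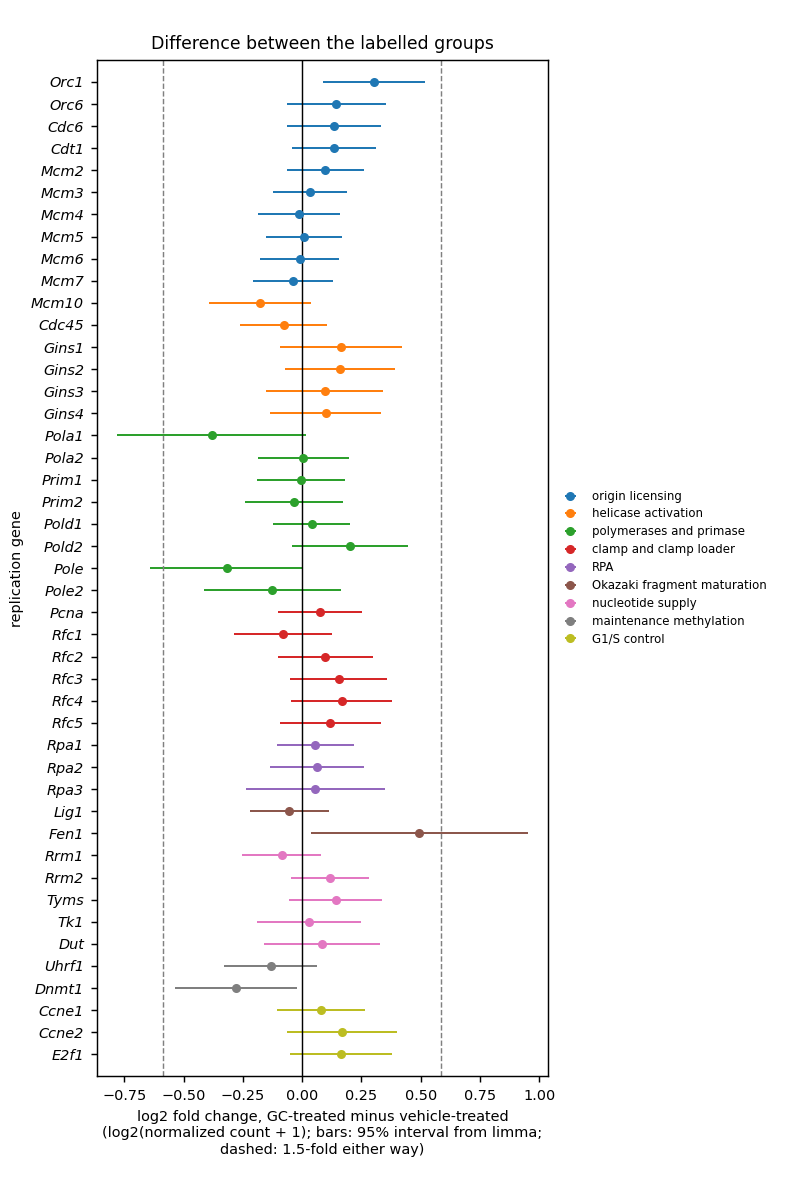
Log2 fold change of each of the 45 replication genes, GC-treated minus vehicle-treated (x axis, log2(normalized count + 1) scale), with 95% intervals from limma as bars and colours for the role groups. The dashed lines mark 1.5-fold either way; the bars of 42 genes stay between them, and those of Fen1, Pola1 and Pole cross.

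Role by role the medians lay on either side of 0. They were 0.065 for origin licensing (10 genes), 0.097 for helicase activation (6), -0.019 for polymerases and primase (8), 0.11 for the clamp and its loader (6), 0.056 for RPA (3), 0.22 for Okazaki fragment maturation (2), 0.084 for nucleotide supply (5), -0.21 for maintenance methylation (2) and 0.16 for G1/S control (3). The group of 2 for Okazaki fragments joins 1 gene above 0 and 1 below.

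Among the licensing genes, Orc1, the largest subunit of the origin recognition complex, had the smallest p of all members. It had 2746, 2893 and 2913 normalized counts in GC-treated 1 to 3 and 2332, 2213 and 2386 in vehicle-treated 1 to 3. All GC-treated libraries lay above all vehicle-treated ones, with means of 2851 ± 90.8 and 2310.2 ± 88.5 (SD, n = 3). The log2 fold change was 0.30 ± 0.096 (SE), 1.23-fold with a 95% interval of 1.06 to 1.43, and the limma adjusted p was 0.62. Without GC-treated 1 it was 0.33, with a limma adjusted p of 0.145. Of the Orc1 exon bases, 12.6% overlap other genes, most of them a lncRNA on the other strand.

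Orc6, the smallest subunit of the same complex, and Cdt1, which brings MCM2-7 to the origin, did not overlap between groups either. Orc6 had 6335, 6611 and 7435 normalized counts in GC-treated 1 to 3 and 5939, 6155 and 6319 in vehicle-treated 1 to 3. The gap was narrow, 6335 against 6319, and the log2 fold change was 0.14 ± 0.092 (SE). For Cdt1 the values were 9004, 9589 and 8957 against 8372, 8239.5 and 8451, with a log2 fold change of 0.14 ± 0.078 (SE). Cdc6, the ATPase that works with Cdt1, had a log2 fold change of 0.13, but its groups overlapped. The adjusted p of these 3 genes in limma was 0.627 to 0.632.

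The 6 subunits of the MCM2-7 helicase were among the most abundant transcripts, between percentiles 95.1 and 98.9 of tested genes in normalized count per kb of exon. Mcm6 had 78606, 75899 and 76048 normalized counts in GC-treated 1 to 3 and 77863, 81014 and 73503 in vehicle-treated 1 to 3. The vehicle-treated libraries were both highest and lowest, and the log2 fold change was -0.010 ± 0.074 (SE), with a 95% interval of 0.884- to 1.11-fold. Mcm2 had 56449.7, 56998 and 55869.7 against 53466, 50435 and 54355, which did not overlap, at a log2 fold change of 0.098 ± 0.072 (SE). Mcm3, Mcm4, Mcm5 and Mcm7 had log2 fold changes of 0.032, -0.014, 0.0077 and -0.038 with overlapping groups. Mcm3 and Mcm5 varied least of the members, the highest library exceeding the lowest by a factor of 1.06 in each.

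In each complex but RFC, the subunit highest per kb and the one lowest were the same in every library. Mcm6 at 25978 normalized counts per kb was the highest and Mcm4 at 8799 the lowest of the MCM subunits in every library, with a ratio of 2.84 to 3.09 between them. The same held for Gins4 (4052) over Gins2 (959.6) in GINS, for Rpa2 (9284) over Rpa3 (4253) in RPA, for Pola2 (5683) over Pola1 (1648) in the polymerase α-primase complex, and for Rrm2 (27711) over Rrm1 (12327) in ribonucleotide reductase. The Pola2 to Pola1 ratio moved most, from 3.01 to 5.32 between libraries. In the RFC clamp loader Rfc1 (1925) was lowest in every library, but more than 1 subunit was highest. Levels per kb divide by the exon length of 1 canonical transcript.

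**Figure D2:**
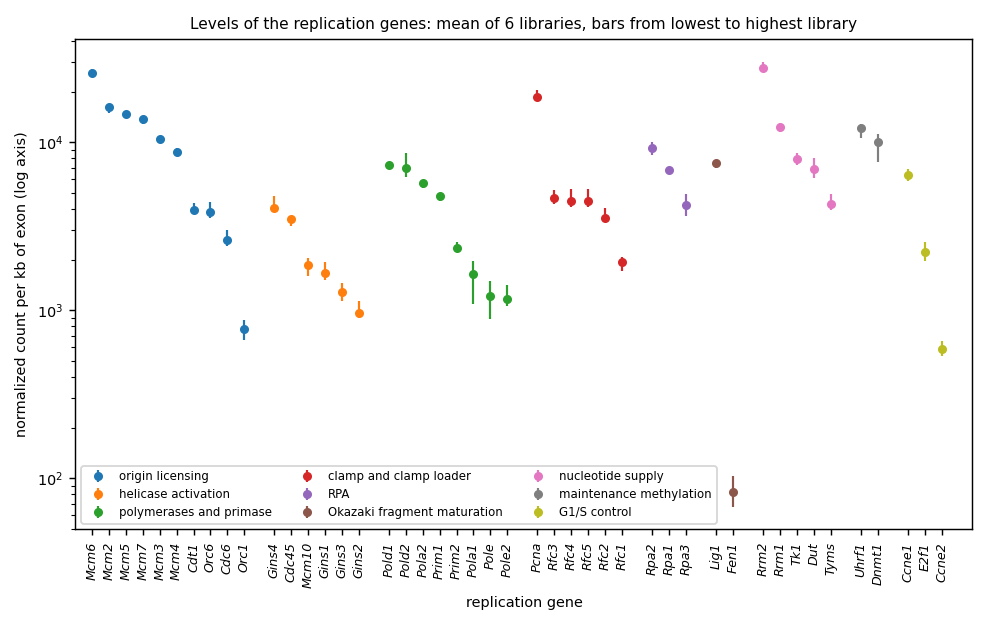
Level of each replication gene as normalized count per kb of canonical exon (y axis, log scale), by role group; points are means of 6 libraries and bars run from the lowest to the highest library. Rrm2, Mcm6 and Pcna sit highest and Fen1 lowest, and most bars are short beside the distances between genes.

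Of the genes that activate the helicase, Mcm10, which binds and steadies the active helicase, had the smallest p. It had 8749, 7627 and 7286 normalized counts in GC-treated 1 to 3 and 8875, 9286 and 8524 in vehicle-treated 1 to 3. GC-treated 1 lay among the vehicle-treated libraries and the other 2 below them, at a log2 fold change of -0.18 ± 0.095 (SE), and -0.25 without GC-treated 1 and -0.12 without GC-treated 3. Cdc45, the partner of GINS in the active helicase, had -0.078. The 4 GINS subunits had positive log2 fold changes: 0.16 for Gins1, 0.16 for Gins2, 0.095 for Gins3 and 0.099 for Gins4. All 4 were highest in GC-treated 3. Gins4, the highest of these per kb, had 5608, 5702 and 6976 against 5568, 5759.7 and 5665, so that GC-treated 3 alone stood above the rest. Gins2 had 3817, 3624 and 4421 against 3487, 3543 and 3563, which did not overlap, but 67.3% of its exon bases overlap Gse1 on the other strand, so its value is uncertain. The smallest adjusted p of the 6 in limma was 0.62.

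The polymerase and primase genes spanned the widest range of fold changes of any role. Pole, the catalytic subunit of the leading-strand polymerase ε, had 10648, 8638 and 7209 normalized counts in GC-treated 1 to 3 and 9973, 12076 and 10689 in vehicle-treated 1 to 3. Its log2 fold change was -0.32 ± 0.14 (SE), 0.802-fold, with a 95% interval of -0.64 to 0.0018 on the log2 scale. Pola1, the catalytic subunit of polymerase α, named here after its values were seen, had 10193, 7430.4 and 5890.5 against 10230.3, 10609 and 9102, a log2 fold change of -0.38 ± 0.18 (SE), 0.767-fold with an interval of 0.582 to 1.01. In both genes GC-treated 1 lay within the range of the vehicle-treated libraries and GC-treated 2 and 3 lay below all 3 of these. The adjusted p in limma was 0.62 for each, and without GC-treated 1 it was 0.107 for Pole and 0.0767 for Pola1, the smallest of any member. Without GC-treated 3 the log2 fold changes were -0.18 for Pole and -0.19 for Pola1, with an adjusted p of 0.915 for each.

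The remaining polymerase subunits did not follow these. Pold1, the catalytic subunit of the lagging-strand polymerase δ and the highest of the group per kb, had 26654, 25203 and 26746 against 25751, 25528 and 25114, a log2 fold change of 0.041 ± 0.072 (SE) with overlapping groups. Its accessory subunit Pold2 had 0.20, Pole2 of polymerase ε -0.13, and Pola2 of polymerase α 0.0058. For the primase subunits Prim1 and Prim2 the values were -0.0047 and -0.034. These 6 genes had overlapping groups.

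**Figure D3:**
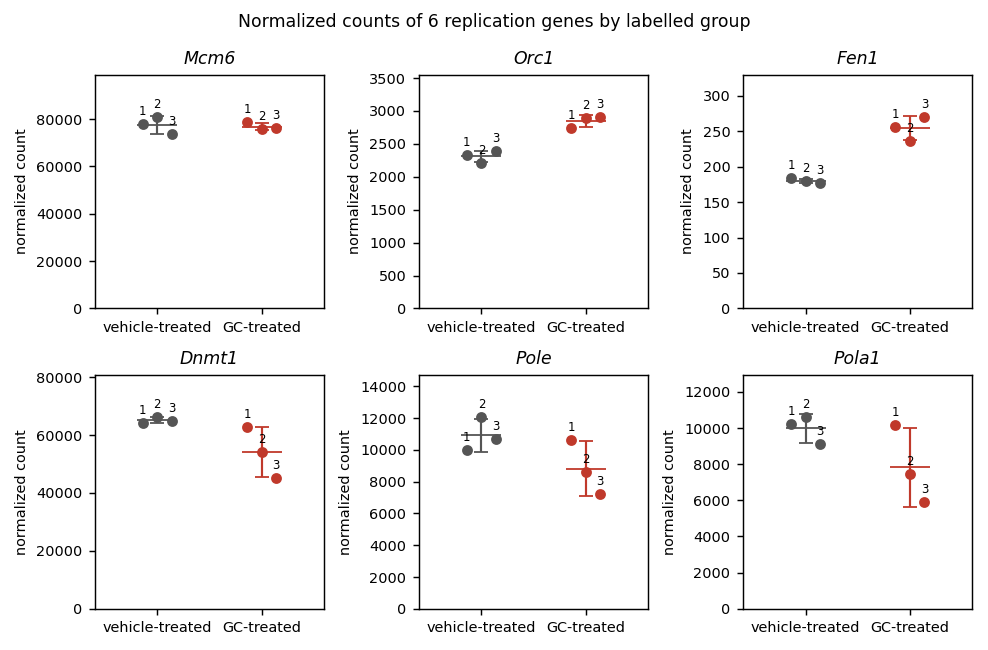
Normalized counts (y axis, from 0) of Mcm6, Orc1, Fen1, Dnmt1, Pole and Pola1 in each library, labelled 1 to 3 within its group; bars give the mean and SD, n = 3. Groups are apart in Orc1, Fen1 and Dnmt1, while in Dnmt1, Pole and Pola1 GC-treated 1 sits near the vehicle-treated libraries.

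Pcna, the clamp that holds polymerases to DNA, had 28356, 27882 and 31086 normalized counts in GC-treated 1 to 3 and 27566, 28514 and 26725 in vehicle-treated 1 to 3. The groups overlapped, at a log2 fold change of 0.075 ± 0.078 (SE). Rfc4, a subunit of the loader that opens the clamp, had 7719, 7613 and 9039 against 7151, 7462 and 7035, which did not overlap, at 0.17 ± 0.094 (SE). The other loader subunits overlapped between groups, with log2 fold changes of -0.083 for Rfc1, 0.098 for Rfc2, 0.15 for Rfc3 and 0.12 for Rfc5. Rfc2, Rfc3, Rfc4 and Rfc5 were all highest in GC-treated 3. Exon bases overlap other genes for 41.4% of Rfc5, 29.0% of Rfc4, 24.3% of Rfc2 and 20.8% of Pcna, which leaves these counts uncertain, since the kit does not mark strand.

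In RPA, the complex that coats single-stranded DNA, the 3 subunits had small positive fold changes, each below its SE. Rpa2, the highest per kb, had 16650.3, 17159.9 and 17745 normalized counts in GC-treated 1 to 3 and 16049, 18129.8 and 15262 in vehicle-treated 1 to 3. Rpa1, the large subunit, had 36800.2, 37972 and 38086 against 36098, 37375 and 35127. In both genes the groups overlapped. The log2 fold changes were 0.056 ± 0.071 for Rpa1, 0.064 ± 0.088 for Rpa2 and 0.056 ± 0.13 for Rpa3 (SE). Their smallest adjusted p in limma was 0.785.

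Fen1, the nuclease that trims flaps between Okazaki fragments, had the largest fold change and the lowest level. It had 255, 236 and 270.2 normalized counts in GC-treated 1 to 3 and 183, 179 and 176 in vehicle-treated 1 to 3. All GC-treated libraries lay above all vehicle-treated ones, with means of 254 ± 17.1 and 179.7 ± 3.46 (SD, n = 3). The log2 fold change was 0.49 ± 0.20 (SE), 1.41-fold with a 95% interval of 1.03 to 1.93, and the limma adjusted p was 0.62. At 82.6 normalized counts per kb it stood at percentile 23.6 of tested genes, and 65.9% of its exon bases overlap Gm10143 and Tmem258, so its count is uncertain. Lig1, the ligase that seals the fragments, had 25836, 23749 and 25287 against 25544, 25929 and 26227, a log2 fold change of -0.054 ± 0.074 (SE) with overlapping groups.

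Among the genes of nucleotide supply, Rrm2, the small subunit of ribonucleotide reductase that limits the making of deoxynucleotides, had the highest level per kb of all 45 members. It had 72212, 75516 and 79075 normalized counts in GC-treated 1 to 3 and 69213, 69061 and 70868 in vehicle-treated 1 to 3, which did not overlap, at a log2 fold change of 0.12 ± 0.073 (SE). Of its exon bases, 43.3% overlap a lncRNA on the other strand. Tyms, which makes thymidylate, had 13870.2, 13504 and 15662 against 12537, 13569 and 12836, at 0.14 ± 0.087 (SE), with vehicle-treated 2 above GC-treated 2. The large reductase subunit Rrm1 had -0.086, the thymidine kinase Tk1 0.030 and Dut, which removes dUTP, 0.084, all with overlapping groups. The smallest adjusted p of the 5 in limma was 0.629.

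Both genes that copy DNA methylation onto the new strand had negative fold changes. Dnmt1, the maintenance methyltransferase, had 62876, 54265 and 45290.1 normalized counts in GC-treated 1 to 3 and 64091, 66214 and 64993 in vehicle-treated 1 to 3. All GC-treated libraries lay below all vehicle-treated ones, GC-treated 1 by a narrow margin, with means of 54144 ± 8793 and 65099 ± 1065 (SD, n = 3). The log2 fold change was -0.28 ± 0.11 (SE), 0.824-fold with a 95% interval of 0.689 to 0.986, and the limma adjusted p was 0.62; without GC-treated 1 it was -0.39, with an adjusted p of 0.0949, and without GC-treated 3 it was -0.16, with an adjusted p of 0.915. Uhrf1, which reads hemimethylated DNA and recruits Dnmt1, had 46765, 42104 and 38509 against 46363, 46034 and 46868, at -0.13 ± 0.087 (SE), and GC-treated 1 lay within the vehicle-treated range. Its log2 fold change was -0.21 without GC-treated 1 and -0.065 without GC-treated 3.

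The regulators of the G1/S transition all had positive fold changes. E2f1, the transcription factor that drives many of these genes, had 5883, 6917 and 6440.1 normalized counts in GC-treated 1 to 3 and 5929.8, 5361 and 5871 in vehicle-treated 1 to 3, at a log2 fold change of 0.16 ± 0.096 (SE). Ccne1, an E-type cyclin that activates Cdk2, had 13433, 12914 and 14426 against 13234, 13168 and 12183, at 0.079 ± 0.083 (SE). The log2 fold change of the other E-type cyclin, Ccne2, was 0.17. Groups overlapped in each, and GC-treated 1 was the lowest GC-treated library for E2f1 and Ccne2.

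**Figure D4:**
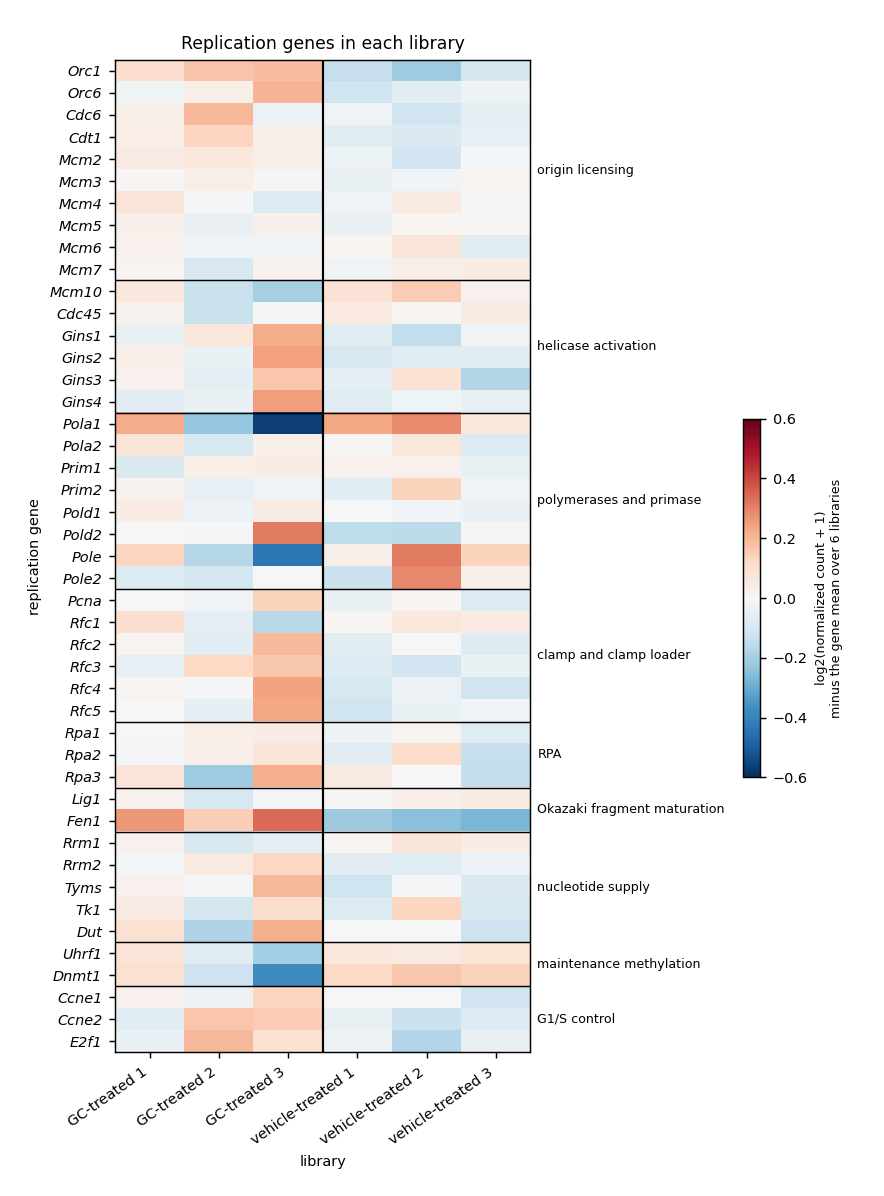
Each replication gene (rows, by role) in each library (columns), as log2(normalized count + 1) minus the gene's mean over 6 libraries (colour). The darkest cells are Pola1, Pole and Dnmt1 in GC-treated 3, which was also the highest library for 22 of the 45 genes.

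GC-treated 3 was the highest library for 22 of the 45 members and the lowest for 7, so it held members far on both sides. The split ran with transcript length. Over the 45 members the Spearman correlation of the log2 fold change with canonical exon length was -0.37, and over 11395 tested genes with a length it was -0.36; it is across genes, which are not independent replicates. Within libraries, the correlation of a member's deviation from its mean with length was 0.40, -0.13 and -0.55 in GC-treated 1 to 3 and 0.40, 0.22 and 0.45 in vehicle-treated 1 to 3, and over all genes 0.19, -0.062 and -0.43 against 0.25, 0.20 and 0.26. Median log2 fold changes by exon length were 0.076 for the 13 members under 2000 bases, 0.095 for the 19 from 2000 to 4000 and -0.014 for the 13 longer ones. Over all tested genes with a length they were 0.10, 0.015 and -0.12. The members with the most negative values were long, at 8110 bases for Pole, 5927 for Dnmt1 and 5406 for Pola1. Of the 13 longer members, however, only 7 were negative (53.8%, against 69.6% of all genes of that length). Mcm3 at 5432 bases, Rpa1 at 5382 and Ccne2 at 5207 had positive values.

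After a length trend was removed within each library, an alternative chosen after seeing the data, the log2 fold change of Pole went from -0.32 to -0.11, that of Dnmt1 from -0.28 to -0.16 and that of Pola1 from -0.38 to -0.29. Orc1 and Fen1 kept 0.31 and 0.46. On those values 0 members passed the adjusted threshold in limma, and 3 (6.67%, against 7.07% of all genes on those values) passed an unadjusted p under 0.05, Orc1, Fen1 and Cdc6. What made the libraries differ by length was not tested.

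GC-treated 1 lay near the vehicle-treated libraries in these same data, so leaving it out widens the group difference for many genes. The smaller p that follows is therefore no separate evidence. Without GC-treated 1 more genes had a small p: at an unadjusted p under 0.05, 20.6% of all tested genes passed, against 7.19% with it. Of the members, 4 passed with GC-treated above (8.89%, against 8.34% of all tested genes) and 5 below (11.1%, against 12.2%), shares close to those of all tested genes. The 4 were Orc1, Rfc3, Ccne2 and E2f1, and the 5 were Mcm10, Pola1, Pole, Uhrf1 and Dnmt1. None passed an adjusted p under 0.05, while limma called 45 of all tested genes (0.386%) without that library.

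The genes of mitosis, which act after replication, gave another picture by library. The list held 26 genes, such as spindle, kinetochore and condensin genes, together with Mki67 and Top2a. Their median log2 fold change was -0.19, and 25 of 26 were negative, against 51.5% of all tested genes. Of the 26, 8 passed an unadjusted p under 0.05 in limma, all with GC-treated below (30.8%, against 5.07% of all tested genes). The adjusted threshold was passed by 0. The list was chosen with earlier results of these data known, and its genes are not independent of each other. The share is therefore a description and not a test. The median deviation of the mitosis genes from their means was 0.044, -0.23 and -0.097 in GC-treated 1 to 3 and 0.040, 0.17 and 0.087 in vehicle-treated 1 to 3. For the replication genes it was 0.025, -0.035 and 0.051 against -0.039, 0.0016 and -0.040. The difference of replication minus mitosis was -0.019, 0.19 and 0.15 in the GC-treated and -0.079, -0.17 and -0.13 in the vehicle-treated libraries, so that every GC-treated library lay above every vehicle-treated one, GC-treated 1 the nearest to these. With 1 value per library the smallest p an exact permutation test can give is 0.1. With the length trend removed the mitosis median was -0.19, with 26 of 26 negative.

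Within that list Kif11, a motor of the spindle, had 28727, 23623 and 21509.5 normalized counts in GC-treated 1 to 3 and 29403, 35393 and 30134 in vehicle-treated 1 to 3. The topoisomerase Top2a had 65075, 50658 and 43901 against 65209.7, 72483 and 70477. In both genes the groups did not overlap, and GC-treated 1 lay just under the lowest vehicle-treated library. Log2 fold changes were -0.37 ± 0.12 and -0.40 ± 0.13 (SE), with limma adjusted p of 0.62.

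**Figure D5:**
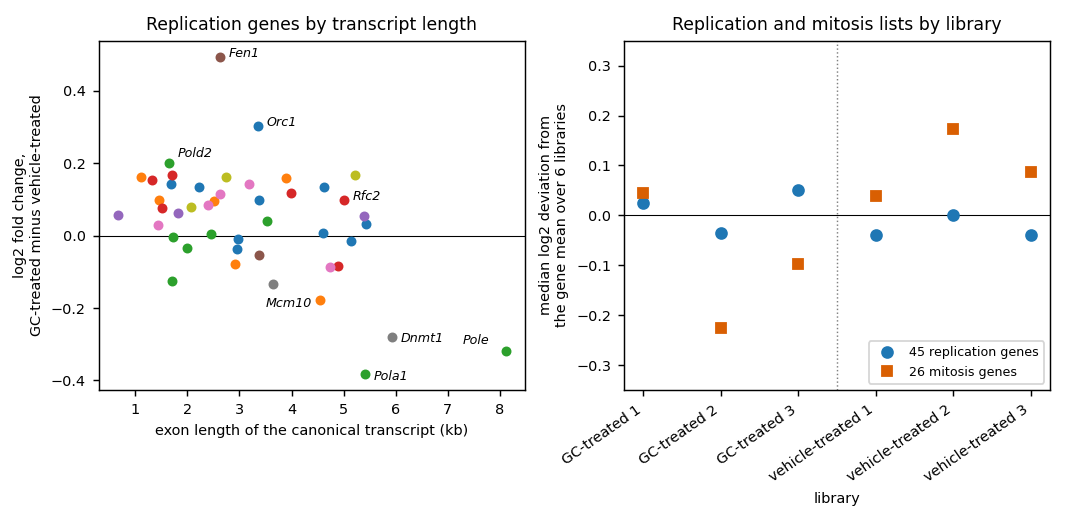
Left, log2 fold change of each replication gene (y axis) against the exon length of its canonical transcript in kb (x axis), with colours for the role groups; Pole, Dnmt1 and Pola1 lie at the long end. Right, median log2 deviation from the gene mean over 6 libraries (y axis) of the 45 replication and 26 mitosis genes in each library; the mitosis median lies above the replication median in every vehicle-treated library and in GC-treated 1, and below it in GC-treated 2 and 3.

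Other genes of the pathway, from lists separate from the members, gave no call either. Over all tested genes, 7.19% passed an unadjusted p under 0.05 in limma, 2.12% with GC-treated above and 5.07% below. These shares are the background for the counts of each list. Of 34 tested factors of replication outside the members, such as further polymerase subunits and fork proteins, 1 passed an unadjusted p under 0.05: Donson, a factor of helicase assembly, with 5099, 5685 and 5452 against 4738, 4559.7 and 4760.4 and a log2 fold change of 0.21 ± 0.087 (SE). Ticrr, which acts at the same step, had 6089, 4445 and 2821 against 5662, 6711 and 5697, at -0.50 ± 0.24 (SE). These were the 2 genes of the list with the smallest p, and they pointed in opposite directions.

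Of 17 other genes of nucleotide supply, 1 passed an unadjusted p under 0.05, Nme1, a nucleoside diphosphate kinase, with 6836, 6647 and 8306 against 5911, 6391 and 5717 and a log2 fold change of 0.27 ± 0.11 (SE). Cad, which starts pyrimidine synthesis, had 27653, 16853 and 17168 against 25463, 26261 and 25533, so GC-treated 1 lay above all vehicle-treated libraries and the other 2 far below, at -0.36 ± 0.17 (SE). Of 17 tested E2F and pocket protein genes 2 passed, both with GC-treated below, where 5.07% of all tested genes did. These were genes of activator E2Fs, beside 0.16 for E2f1: E2f3 had 1926, 1589 and 1397 against 2049, 2223 and 2356, at -0.44 ± 0.14 (SE). E2f2 had 9083, 6748 and 5901 against 9785, 10356 and 8098, at -0.39 ± 0.16 (SE), and its groups overlapped. Of 16 tested cyclins, CDKs and inhibitors of G1 and S, 1 passed, Cdk6, a kinase partner of D-type cyclins, with 7481, 5167 and 4274 against 7424, 8766 and 7936, at -0.55 ± 0.18 (SE). Fbxw7, which marks cyclin E for destruction, had 2061, 1622 and 1434 against 1916, 2185 and 2145, at -0.30 ± 0.15 (SE). In both genes GC-treated 1 lay within the vehicle-treated range and the other GC-treated libraries below it. Of 11 genes of the replication checkpoint 1 passed, the kinase Chek2, with 1689, 1613 and 1609 against 1882, 1999 and 2075, at -0.28 ± 0.10 (SE). The kinase Atr had 3334, 2602 and 2258 against 3395, 3497 and 3126, at -0.31 ± 0.14 (SE), with GC-treated 1 within the vehicle-treated range. None of these genes passed an adjusted p under 0.05 in limma, where each had 0.62. Without GC-treated 1, 2 genes of these lists passed, where 45 of all tested genes did (0.386%).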

How the data were processed

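Total RNA of 6 sorted samples was converted to cDNA with SMART v4 and made into Nextera XT libraries, which do not mark strand. The authors used STAR for alignment to GRCm39 with a Gencode annotation, summarizeOverlaps for counting by gene and DESeq2 for their own tests. Tool versions were not given in the sources used here. Deposited values are a normalized signal for each gene symbol: reads over 1 size factor per library. All values of a library were whole multiples of 1 step (100% within 0.001 of a read), from which the reads were recovered. The step of GC-treated 2 was too near 1 for the automatic check, and its reads were taken from its step in the same way. Because the values were already scaled, the main test was limma 3.58.1 (R 4.3.3) with a mean-variance trend on log2(normalized count + 1), on genes at 10 or above in 3 or more libraries, two-sided, with Benjamini-Hochberg adjustment over all 11649 tested genes at 0.05. On this scale the fold changes of low genes are understated. The scripts were tested on simulated data.

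Groups came from the sample labels alone. No pair of libraries was alike within counting noise. Replicate numbers did not pair the libraries: the correlations of same-numbered deviations were 0.063, -0.14 and 0.13. The members and lists were chosen with earlier results of these data known. Per-library values are given, in each role, for the member with the highest level per kb and that with the smallest p, for members whose groups do not overlap, for the 2 smallest p of each other list, and for Pola1, added after its values were seen. The other windows with E2F letters were likewise added. Lengths, coordinates and sequences were read from GRCm39 and Gencode M39, an annotation newer than the one the authors used; genes sharing exon bases with others are uncertain. Promoters were read from this genome because the RefSeq table is on another build, and 1 is not reported here. Alternatives were edgeR 4.0.16 with TMM factors and DESeq2 1.42.0 on recovered reads, TMM and total-read scaling, limma without a trend, no filter or a minimum of 50, pseudocounts of 0.5 and 5, the replicate block, and leaving out each library; removing a length trend (lowess, span 0.3) was added after seeing the data.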

Additional observations from a re-analysis of the deposited data

How the results depend on the processing

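No member passed the adjusted threshold in any of 17 alternatives, where the smallest adjusted p was 0.077, and 737 of 765 member fold changes kept their sign. The 28 that did not were in 13 members, each at most 0.099 in size on the log2 scale. The remaining 32 members had 1 sign throughout. The count of all tested genes called was 2 in DESeq2 (2 lower) and 1 in limma without a trend (1 lower).

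Leaving out each library in turn gave 0 to 45 called genes (0 to 2 higher, 0 to 43 lower), of which 45 came without GC-treated 1, and 0 to 2 called genes of the other pathway lists. Members at an unadjusted p under 0.05 numbered 0 to 9, with 9 without GC-treated 1, 1 without vehicle-treated 1 or vehicle-treated 3, and 0 without vehicle-treated 2; the share of all tested genes moved with it, from 2.35% without vehicle-treated 2 to 20.6% without GC-treated 1. The median log2 fold change of the members ran from 0.026 (without GC-treated 3) to 0.097, that of origin licensing from 0.049 to 0.084, nucleotide supply from -0.0032 (without GC-treated 3) to 0.12, polymerases and primase from -0.044 to 0.016 (without vehicle-treated 2), helicase activation from 0.016 (without GC-treated 3) to 0.14, the clamp and its loader from 0.029 (without GC-treated 3) to 0.14, RPA from 0.010 (without vehicle-treated 3) to 0.079, Okazaki fragment maturation from 0.19 to 0.26, G1/S control from 0.12 to 0.22 and maintenance methylation from -0.30 (without GC-treated 1) to -0.11 (without GC-treated 3). Members that changed sign ran from -0.055 to 0.024 for Mcm4, -0.0099 to 0.034 for Mcm5, -0.048 to 0.023 for Mcm6, -0.059 to 0.00030 for Mcm7, -0.0023 to 0.16 for Gins4, -0.035 to 0.055 for Pola2, -0.029 to 0.037 for Prim1, -0.074 to 0.025 for Prim2, -0.040 to 0.18 for Rpa3, -0.015 to 0.10 for Tk1 and -0.0032 to 0.20 for Dut. Where an arm was left with 2 libraries the fit pooled the spread of both groups.

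Pola2 had -0.00030 under total-read scaling. With the length trend removed, a setting chosen after seeing the data, the medians were -0.092 for polymerases and primase and -0.012 for RPA, and the sign changed in Mcm4 (0.064), Pola2 (-0.036), Pcna (-0.019), Rpa2 (-0.012), Rpa3 (-0.068) and Tk1 (-0.069). These 13 members had values near 0 in the main comparison; the cause of other differences was not tested.

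With the replicate number as a block, 0 genes were called, 3 members (6.67%, against 8.44% of all tested genes) passed an unadjusted p under 0.05 and the median of the members was 0.064. The numbers do not pair the libraries, and the block changed no call. With 3 libraries a group, and 1 pool that they may share, the precision is limited by the number of libraries and not by depth.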
